A study of Mus musculus with 121 samples.

Results

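Substantia nigra (SN) and striatum (STR) were compared within the same 7 adult wild-type mice, 14 of the 121 libraries of the series. The members are all libraries labelled wild type (WT, genotype wt/wt) in the AAV-Cre experiment from these regions. Each mouse number occurs once in SN and once in STR, so the regions are paired by mouse. The series asks what a rise of endogenous GDNF, a survival factor for midbrain dopamine neurons, does to the mouse brain. It uses a conditional allele of Gdnf, written GDNF cKU in the labels, that raises expression from the gene's own locus once Cre has acted.

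The 7 mice belong to the line labelled GDNF cKU +AAV-Cre but carry no cKU allele. All adult groups, these controls among them, received AAV-Cre in the striatum of both hemispheres at 3 to 5 months. Tissue was taken at 5 to 7 months from males on a mixed 129Ola/ICR/C57bl6 background. The SN was not injected. Heterozygous (HET, wt/cKU) and homozygous (HOM) carriers got the same injection and enter only where the same contrast is repeated. Young WT mice of 2 months come from the cross GDNF cKU x Nestin-Cre and had no injection. As a model the adult group is limited: Cre is expressed with no target allele, and every STR library comes from injected tissue. Serotype and promoter of the vector are not given in the sources used here. Age, source of Cre and injection all change together between adult and young mice, so their parts cannot be told apart.

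The regions were dissected from 2-mm slices, so each library is a mixture of neurons, glia, vessels and neighbouring tissue. Reads assigned to genes ranged from 16280873 to 20474159 per library in adult SN (median 18992098) and from 13951371 to 21788649 in adult STR (median 17623526). Levels are counts scaled to library size (cpm), given as the lowest, median and highest of the 7 libraries of a region. Fold changes are log2 of SN over STR from the paired fit, so a positive value means a higher level in SN. A gene was called when its p, adjusted over all genes tested, was under 0.1. In bulk tissue, fewer cells and less RNA per cell cannot be told apart.

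Dopamine neurons of the SN send their axons to the dorsal striatum, where they meet projection neurons that carry D1 or D2 receptors. Their transcripts sit mostly in the cell body, so the message for a dopamine marker is found in the midbrain and its protein in both regions. Striatal neurons make Gdnf, and the receptor Ret on dopamine neurons receives it.

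The markers fit the labels in every library. Th, which makes the dopamine precursor L-DOPA, stood at 382, 566 and 861 cpm in SN and 7.62, 8.21 and 9.75 cpm in STR. Slc6a3, the dopamine transporter, had 787, 1208 and 1747 cpm in SN and 0.0941, 0.36 and 0.613 cpm in STR. Ppp1r1b, the DARPP-32 phosphatase inhibitor of striatal projection neurons, had 38.8, 51.8 and 212 cpm in SN and 1677, 2230 and 2482 cpm in STR. The lowest SN library lay above the highest STR library for Th and Slc6a3, and the reverse held for Ppp1r1b. The log2 fold changes were 6.08 (SE 0.18, adjusted p 1.95e-09), 11.93 (SE 0.21, adjusted p 1.59e-10) and -5.12 (SE 0.27, adjusted p 6.69e-08). Without mouse M3587 they were 6.20, 11.96 and -5.38.

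**Figure D1:**
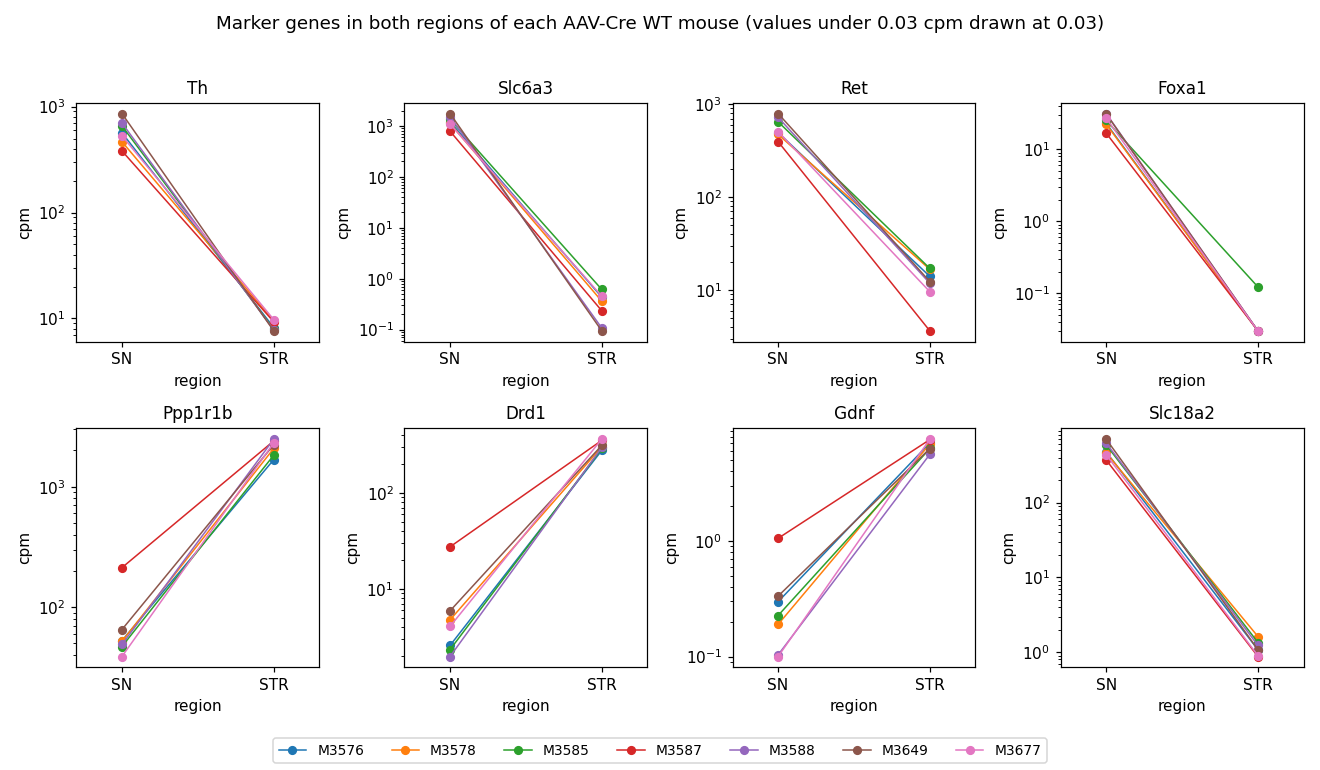
Levels of 8 genes in SN and STR of each mouse, joined by mouse. Ppp1r1b, Drd1 and Gdnf are highest among SN libraries in M3587 (212, 27.4 and 1.05 cpm).

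Several libraries stand apart from the rest of their region. The SN library of M3587 carries striatal tissue: Ppp1r1b reached 212 cpm there against at most 65 in the other 6. Over a list of 29 striatal projection neuron genes, M3587 was the highest SN library for 25. The striatal RNA in it came to a median of 6.65% (quartiles 5.99 and 7.12%), taking the mouse's own STR library as pure. Results are therefore also given without M3587. The SN libraries of M3578, M3587 and M3588 also held more Slc17a7, the vesicular glutamate transporter of cortex and hippocampus (106, 223 and 101 cpm, against a median of 15.5). Ttr, the thyroxine carrier made by choroid plexus, reached 7767 and 5611 cpm in STR of M3585 and M3588 against a median of 199. The STR library of M3677 had the highest summed level of MHC genes, 698 cpm against a median of 251.

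**Figure D2:**
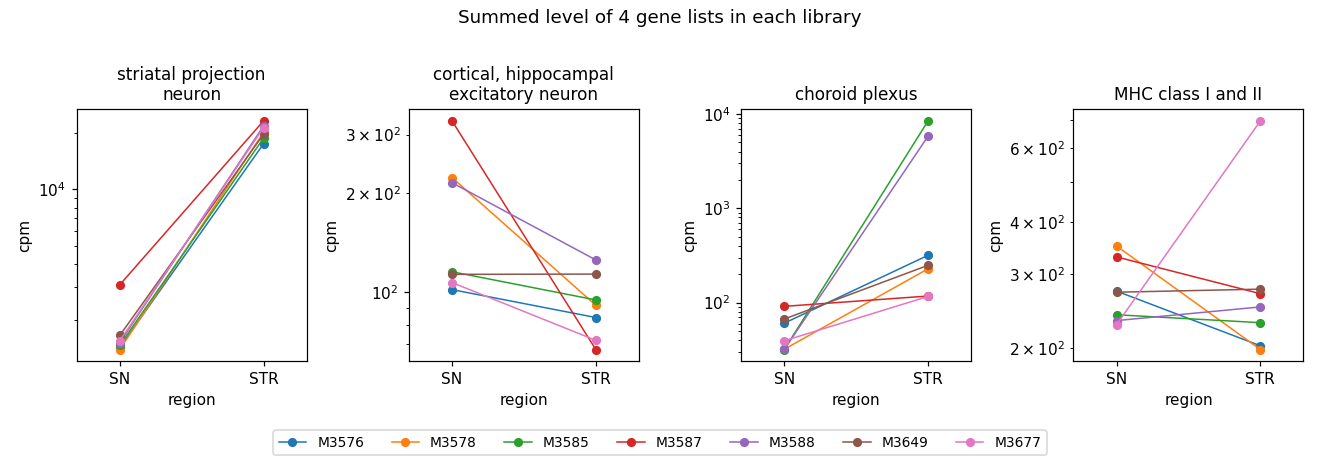
Summed levels of 4 gene lists in each library. The striatal list reaches 3089 cpm in SN of M3587, and the choroid plexus list 8467 and 5829 cpm in STR of M3585 and M3588.

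Most genes differed between the regions. Of 14833 genes tested, 11633 were called (78.4%): 5983 higher in SN (40.3%) and 5650 higher in STR (38.1%). A difference of at least 2-fold was called for 1311 genes higher in SN (8.84%) and 1343 higher in STR (9.05%). At least 10-fold differences numbered 127 in favour of SN and 196 in favour of STR. The median log2 fold change over all genes was 0.02. For 3438 genes every SN library lay above every STR library, and for 3363 every SN library lay below. Without M3587, 14765 genes were tested, of which 5733 (38.8%) were higher in SN and 5447 (36.9%) in STR. The first principal component of the 14 libraries held 81.7% of the variance and the second 3.96%.

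The 10 largest differences in favour of SN, among genes with a mean of at least 10 cpm and the same sign in all 7 mice, are mostly genes of dopamine neurons and midbrain transcription factors. Chrna6, a nicotinic receptor subunit, had 112, 138 and 207 cpm in SN and 0, 0 and 0.0601 cpm in STR. A single read fell on Chrna6 in the 7 STR libraries together, so its ratio, 19395, has a counting interval from 3481 to 766093. Foxa1, a forkhead factor that maintains dopamine neurons, had 16.9, 25.4 and 31.6 cpm in SN and 0, 0 and 0.123 cpm in STR. With 2 reads in all STR libraries together its ratio was 1567, counting interval 433 to 12942. These intervals cover counting error only.

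Among the same 10, Chrnb3, another nicotinic subunit, had a log2 fold change of 10.13, and En1, the engrailed homeobox factor of the midbrain, one of 9.13. Slc18a2, which loads monoamines into vesicles, reached 8.82, from 371, 477 and 705 cpm in SN and 0.876, 1.08 and 1.62 cpm in STR. Also among them are Slc6a3, given above, Lhx1 (8.37), a LIM homeobox factor of midbrain GABA neurons, Cnpy1 (8.12), a modulator of FGF signalling at the midbrain and hindbrain boundary, and C130021I20Rik (7.97), a transcript without a known product that lies beside Lmx1b. No SN library of these genes came near any STR library. Without M3587 the values were 10.17 for Chrnb3 and 8.83 for Slc18a2.

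In favour of STR, the 10 largest differences include genes of striatal projection neurons. Adora2a, an adenosine receptor of D2 neurons, fell from 362, 441 and 513 cpm in STR to 0.9, 1.61 and 38.5 cpm in SN. M3587 is the highest SN library and the groups do not overlap. Adora2a had a log2 fold change of -6.69 (adjusted p 3.36e-06), or -7.46 without M3587. Drd1, the D1 dopamine receptor, had 278, 303 and 364 cpm in STR and 1.97, 4.05 and 27.4 cpm in SN. M3587 once more gave the highest SN value of Drd1, and the log2 fold change was -5.90, or -6.45 without that mouse.

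Other genes among these 10 differ in function. Cd4, known as a T cell coreceptor, had 67, 96.4 and 111 cpm in STR and 0.0596, 0.17 and 7.52 cpm in SN and a log2 fold change of -6.51, -8.65 without M3587. Of the 13 T and B cell genes listed, Cd4 alone passed the expression filter, and the genes for the CD3 and CD8 chains had 30 reads or fewer per region. Ankrd63, an ankyrin repeat protein of striatal neurons (-6.43), Sh3rf2, an SH3 domain ubiquitin ligase (-6.35), and Lrrc10b, a leucine-rich repeat protein (-6.26), moved with Drd1. Their folds include M3587, the highest SN library for each, at 17.8, 6.23 and 17.3 cpm. The next SN library had 3.44, 0.664 and 2.75 cpm. Lhx8 (-6.36) is the LIM factor of cholinergic interneurons, and Gabrd (-5.77) the delta subunit of extrasynaptic GABA-A receptors. M3587 was the highest SN library for both, at 0.719 and 17.2 cpm, with the next at 0.111 and 3.33 cpm. Dnah6, an axonemal dynein chain, had 9.58, 66.2 and 107 cpm in STR and 0.711, 0.776 and 1.87 cpm in SN. Its lowest STR library still lay above every SN library, and its log2 fold change was -5.81.

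**Figure D3:**
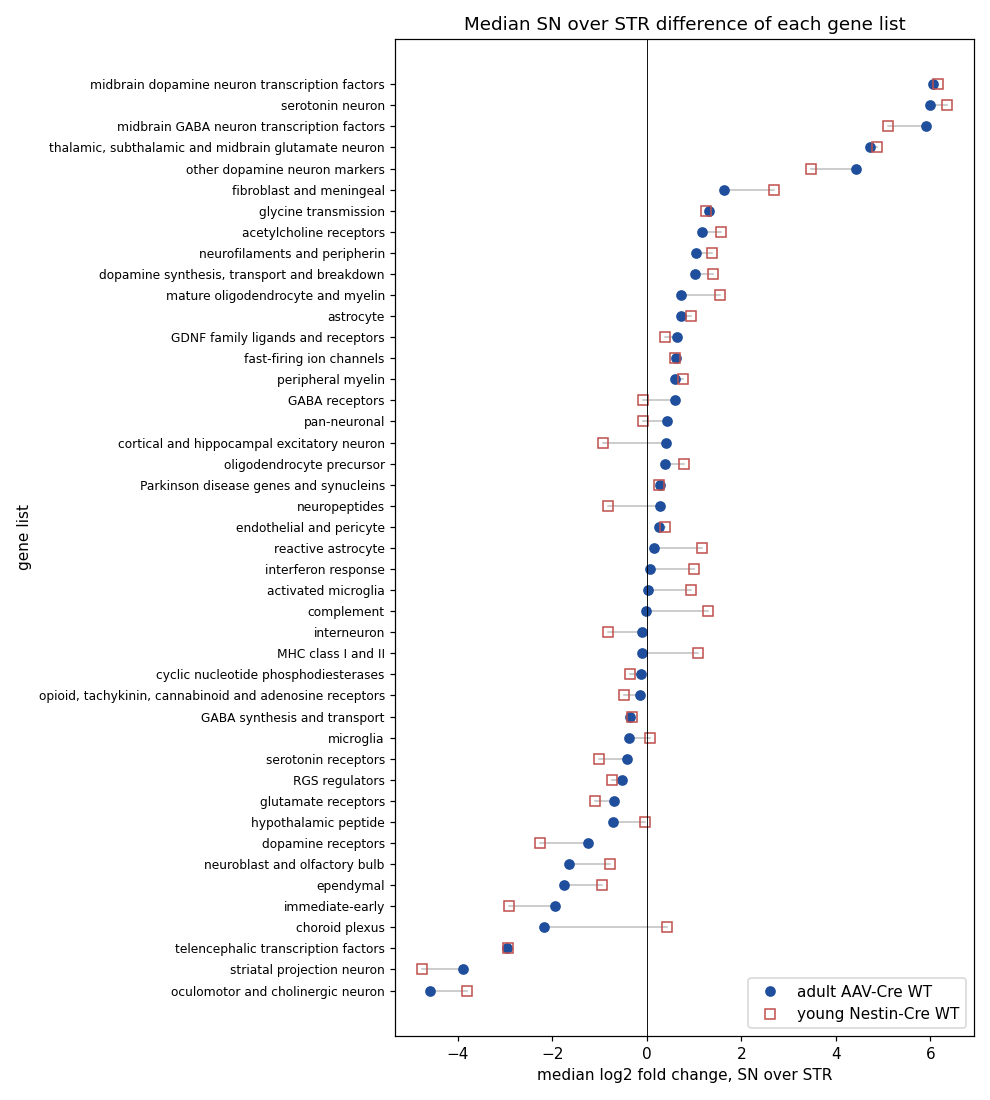
Median log2 fold change of 44 gene lists in adult AAV-Cre WT and young Nestin-Cre WT mice. Dopamine transcription factors (6.05 and 6.16) lie close, while choroid plexus genes (-2.18 and 0.42) and MHC genes (-0.11 and 1.09) lie apart.

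Genes for making, moving and breaking down dopamine were mostly higher in SN: of 13 genes tested 10 were higher in SN and 2 in STR, with a median log2 fold change of 1.02 beside 0.02 over all genes. The counts for this and later lists stand beside 40.3% of all genes higher in SN and 38.1% higher in STR. Ddc, which turns L-DOPA into dopamine, had 330, 446 and 666 cpm in SN and 12.5, 13.7 and 20.6 cpm in STR. All 7 SN libraries lay above all STR libraries, at a log2 fold change of 5.02 (SE 0.10, adjusted p 5.42e-10). Pts, an enzyme of the cofactor that Th needs, was not called, with 15.6, 25.1 and 29.7 cpm in SN and 15.2, 24.1 and 29.7 cpm in STR and a log2 fold change of 0.03 (adjusted p 0.55). Pts was called when libraries were scaled by total counts. Summed over the list, SN libraries held 3026, 4170 and 5588 cpm and STR libraries 588, 668 and 718 cpm. The lowest SN sum is that of M3587 and the highest that of M3649, which also had the most Th.

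Transcription factors of dopamine neurons gave the highest list median, 6.05: of 10 genes tested 9 were higher in SN and 0 in STR. Foxa2, a forkhead factor needed to form and keep these neurons, had 5.22, 9 and 10.5 cpm in SN and no read in STR, at least 330-fold against 3 reads over the group. With Foxa2 set to that bound the list median stayed at 6.05. Pitx3, the homeobox factor of SN dopamine neurons, had 4.79, 7.55 and 10.2 cpm in SN and 0, 0.047 and 0.12 cpm in STR and a log2 fold change of 7.30. Otx2, which marks ventral tegmental neurons and choroid plexus, was not called (6.28, 8.07 and 9.68 cpm in SN and 1.17, 2.34 and 28.7 cpm in STR, adjusted p 0.104). Its highest STR value belongs to M3585, the library with most Ttr. Otx2 was called higher in SN without M3585 (1.48) or M3588 (1.37), and with DESeq2, total counts or the likelihood ratio test. In HET and HOM mice all 10 genes of the list were called. Of 10 further dopamine neuron markers 8 were higher in SN, among them Ntsr1, the neurotensin receptor (61.9, 77 and 105 cpm in SN and 1.93, 2.46 and 3.1 cpm in STR; log2 fold change 5.08).

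Receptors for dopamine went the other way: of 4 genes tested 0 were higher in SN and 3 in STR, with a median of -1.25. Drd2, the D2 receptor of striatal neurons and autoreceptor of dopamine neurons, had 64.3, 68 and 97.3 cpm in SN and 179, 229 and 245 cpm in STR. The groups do not overlap, yet the difference is modest at a log2 fold change of -1.52 (adjusted p 2.32e-07). Drd5, the D5 receptor, was lower in SN at -0.98 (adjusted p 7.60e-04), with the highest SN library in M3587 and an overlap of the groups. Drd3, the D3 receptor of the ventral striatum, was not called (log2 fold change -0.61, adjusted p 0.216).

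The GDNF system is split between the regions. Gdnf, at chr15:7810050-7837580 in mm10, had 5.62, 6.91 and 7.6 cpm in STR and 0.1, 0.226 and 1.05 cpm in SN. The SN value of M3587 is about 3 times the next, and no SN library reached the STR range. The log2 fold change was -4.42 (SE 0.32, adjusted p 6.01e-07), and -4.98 (adjusted p 7.30e-08) without M3587. Ret, the receptor tyrosine kinase through which GDNF signals, had 394, 506 and 792 cpm in SN and 3.62, 12.3 and 17 cpm in STR. The lowest of these STR values, in M3587, stood apart from the other 6, and SN lay above STR in every mouse (log2 fold change 5.62, SE 0.21, adjusted p 6.02e-09). Gfra2, the coreceptor that prefers neurturin, had 31.9, 43.2 and 48.3 cpm in SN and 5.78, 9.13 and 12.2 cpm in STR (log2 fold change 2.24, adjusted p 1.22e-08). Gfra1, the coreceptor of GDNF itself, had 82.8, 115 and 141 cpm in SN and 47, 58.1 and 74.3 cpm in STR, closer but without overlap, and a log2 fold change of 0.94 (adjusted p 1.20e-06). Nrtn, the ligand neurturin, was not called (log2 fold change -0.38, adjusted p 0.205). Artn, Pspn and Gfra3, the ligands artemin and persephin and the artemin coreceptor, fell under the expression filter.

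All 29 genes of the striatal projection neuron list were lower in SN, with a median log2 fold change of -3.90 (-4.06 without M3587). Their summed level was 1394, 1519 and 3089 cpm in SN and 17504, 20146 and 23216 cpm in STR. The top SN sum is that of M3587, nearly 2 times the next, and is far under the lowest STR sum. Ppp1r1b was the most abundant gene of the list and made up 10.5% of the STR sum.

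Some signalling enzymes of these neurons were lower in SN, beside 38.1% of all genes higher in STR. Of 19 cyclic nucleotide phosphodiesterases tested, 10 were higher in STR, 4 in SN and 5 not called, with a median of -0.12. Pde10a, which breaks down cAMP and cGMP in projection neurons, had 1743, 2002 and 2285 cpm in STR and 57, 61.4 and 214 cpm in SN (log2 fold change -4.76, SE 0.21, adjusted p 2.16e-08). Pde7b (-3.92), a cAMP enzyme, Pde1b (-3.19), the calcium-driven enzyme, and Pde2a (-2.39), which cGMP activates, were lower in SN in all 7 mice. M3587 was the highest SN library for all 4 and no SN library reached the STR range. Pde1a, Pde3b, Pde4c, Pde5a and Pde6d, relatives with other substrates or cells, were not called, though Pde5a was without M3585 (0.72) and Pde6d without M3576 (-0.12). Among RGS proteins, which end G protein signals, 9 of 16 were higher in STR and 5 in SN. Rgs9, the form that follows D2 receptors, had 1135, 1239 and 1348 cpm in STR and 31.2, 49.5 and 138 cpm in SN and a log2 fold change of -4.49. Rgs14 (-4.68), a scaffold that joins Ras and G protein signals, Rgs4 (-2.06), a Gq and Gi regulator, and Rgs20 (-1.94), a regulator of Gz, followed.

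Regional transcription factors separate the forebrain and midbrain origin of the tissue. Of 13 telencephalic factors 12 were higher in STR, with a median of -2.97. Meis2 (-4.70), a homeobox cofactor of striatal neurons, and Dlx6 (-4.52), a homeobox factor of forebrain GABA neurons, were lower in SN. Nkx2-1, a factor of ventral forebrain and hypothalamus, was not called (4.17, 13.5 and 26.4 cpm in SN and 6.8, 9 and 10.7 cpm in STR, adjusted p 0.14), but was called higher in SN without M3576 (0.80) or M3578 (0.70). In contrast, all 6 midbrain GABA neuron factors tested were higher in SN, with a median of 5.90. Gata3, a zinc finger factor of midbrain GABA and serotonin neurons, had 6.18, 9.06 and 12.8 cpm in SN and 0, 0.047 and 0.368 cpm in STR and a log2 fold change of 6.81. Lhx5, a LIM factor of the same region, reached 5.62. Sox14, which directs tectal and thalamic GABA neurons, had 3 reads in STR and a ratio of 91.1 (counting interval 30.9 to 444).

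Cells around the dopamine neurons also mark SN libraries. Of 11 genes of thalamic, subthalamic and midbrain glutamate neurons 10 were higher in SN, with a median of 4.73. Their summed level was 292, 394 and 557 cpm in SN and 7.6, 27.7 and 60.9 cpm in STR, of which Slc17a6, the vesicular glutamate transporter of these regions, made up 71.2% in SN. Barhl1 (7.19) and Barhl2 (6.68), homeobox factors of subthalamic and mammillary neurons, and Lmx1b (6.92), a LIM factor of dopamine, glutamate and serotonin neurons, had at most 0.117 cpm in any STR library. Shox2, a homeobox factor of thalamic neurons, was the exception, with 1.68, 2.75 and 4.59 cpm in SN and 0.0584, 4.93 and 13.2 cpm in STR and an adjusted p of 0.532. Its STR values spread widely, with M3585 at the top.

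Serotonin markers, which belong to the raphe behind the SN, varied among SN libraries. Tph2, the enzyme for serotonin synthesis in brain, had 3.28, 8.35 and 54 cpm in SN and 0.123, 0.428 and 0.901 cpm in STR, and M3585, M3587 and M3588 held 51.4, 23.9 and 54 cpm. Slc6a4, the serotonin transporter, had a log2 fold change of 7.11 (1.67, 6.4 and 34.7 cpm in SN and 0, 0.107 and 0.123 cpm in STR). Even the lowest SN library exceeded the highest STR library for both. Slc22a3, a low-affinity monoamine transporter also found outside serotonin neurons, was lower in SN at -2.99. How far raphe tissue adds to other SN values was not tested. Of the hypothalamic genes listed, Pmch, melanin-concentrating hormone, was higher in SN at 3.93 and highest in M3677. Hdc, which makes histamine, was higher at 2.05 and highest in M3578 (49.3 cpm). Avp (-2.47) and Oxt (-2.36), vasopressin and oxytocin, were lower in SN at levels of at most 9.31 cpm, with overlapping groups, and Pomc, the precursor of melanocortins, was not called (adjusted p 0.241).

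Cholinergic genes were lower in SN. Chat, which makes acetylcholine, had 31.9, 35.8 and 39 cpm in STR and 0.673, 1.13 and 3.07 cpm in SN (log2 fold change -4.68, SE 0.22, adjusted p 2.83e-08). Slc18a3 (-4.72), the vesicular acetylcholine transporter that lies inside the Chat gene, and Slc5a7 (-4.60), the choline transporter, gave the same picture, with M3587 the highest SN library of all 3. Prph, the intermediate filament peripherin of motor and sensory neurons, was higher in SN at 4.90 (5.26, 8.55 and 18.7 cpm in SN and 0.161, 0.35 and 0.648 cpm in STR). Receptors for acetylcholine leaned to SN: of 14 genes tested 11 were higher in SN and 2 in STR. Chrna5, a nicotinic subunit of dopamine neurons, had 7.52, 9.78 and 14.3 cpm in SN and 0.1, 0.375 and 0.551 cpm in STR (log2 fold change 4.99), while Chrm4, the M4 muscarinic receptor of D1 neurons, fell to -4.36. Chrna2, a rare nicotinic subunit, was not called (log2 fold change 1.36, adjusted p 0.132). It was called without M3576 (1.82) or M3578 (1.95), without pairing by mouse, and with DESeq2 or the likelihood ratio test.

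Of 11 interneuron genes 4 were higher in SN and 4 in STR, and of 6 for GABA synthesis and transport 3 and 3. Gad1 (-0.92) and Gad2 (-0.84), the enzymes that make GABA, and Slc32a1, which loads it into vesicles, were lower in SN in all 7 mice. Gad1 had 733, 824 and 931 cpm in STR and 285, 443 and 753 cpm in SN, and its highest SN library, M3576, overlapped the STR range. Slc6a11, the GABA transporter GAT-3 of astrocytes, was higher in SN with 898, 1138 and 1213 cpm in SN and 137, 201 and 256 cpm in STR (log2 fold change 2.44, adjusted p 3.66e-09). Npy (-3.61) and Sst (-2.80), peptides of a striatal interneuron class, were lower in SN, while Calb2, the calcium buffer calretinin (201, 235 and 321 cpm in SN and 4.32, 5.6 and 19.5 cpm in STR; log2 fold change 4.98), and Cck (1.73), cholecystokinin, were higher. Pvalb, parvalbumin, Nos1, the neuronal nitric oxide synthase, and Htr3a, the ionotropic serotonin receptor, were not called (adjusted p 0.177, 0.245 and 0.289). Nos1 was called without M3585 (-0.17) and Htr3a without M3578 (-0.89).

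Of 25 glutamate receptor genes tested 8 were higher in SN and 15 in STR, and of 16 for GABA 10 and 6, beside 40.3 and 38.1% of all genes. Grm5, the mGlu5 receptor, fell from 335, 422 and 501 cpm in STR to 78.6, 94.6 and 136 cpm in SN, with no overlap (log2 fold change -2.12, adjusted p 7.99e-09). Grin2b, the NMDA subunit of plastic synapses, was lower in SN at -1.60, and Grin2d, the NMDA subunit of midbrain neurons, higher at 1.70. Grm2, an autoreceptor for glutamate, rose to 3.65 in SN, highest in M3587. Gabra4 (-2.20), partner of Gabrd in tonic inhibition, was lower, while Gabrq (2.70), the theta subunit, was higher. Glycine genes favoured SN: of 6 genes tested 5 were higher in SN and 1 in STR. Glra1, the glycine receptor of brainstem and cord, had 12.8, 18.8 and 25.5 cpm in SN and 0.117, 0.541 and 1.1 cpm in STR (log2 fold change 5.04), and Glra3 (2.91) and Glra2 (1.32), its relatives, and Slc6a9 (1.32), the glycine transporter of astrocytes, moved with it.

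Among receptors for other transmitters, Cnr1, the cannabinoid receptor on projection neuron terminals, was lower in SN at -2.07 and Oprd1, the delta opioid receptor, at -2.03. Tacr3, the neurokinin B receptor of dopamine neurons, was higher at 2.06. Oprk1, the kappa opioid receptor, and Adora1, the A1 adenosine receptor, were not called. Without M3587 Adora1 was called, with a log2 fold change of -0.24 (adjusted p 0.00862), and likewise without M3585 (-0.20). Oprk1 was called without M3585 (-0.26). Serotonin receptors Htr6 (-2.67), Htr1d (-2.59) and Htr1b (-2.59), of projection neurons and their terminals, were lower in SN, and Htr1a, the autoreceptor, higher at 2.06. Htr1f, a rarer relative, was called only without M3649 (-0.45).

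Of 15 neuropeptide genes tested 7 were higher in SN and 7 in STR, beside 40.3 and 38.1% of all genes. Without M3587 the counts were 6 and 6, and in HET mice 3 and 7. Adcyap1, the peptide PACAP, had 63.6, 117 and 179 cpm in SN and 0.188, 0.65 and 1.58 cpm in STR, well apart in all mice (log2 fold change 7.31, SE 0.25, adjusted p 4.10e-09). Pdyn, the dynorphin precursor of D1 neurons, fell to -5.11 and Penk, the enkephalin precursor of D2 neurons, to -4.39. Penk had 1334, 1631 and 1990 cpm in STR and 51.6, 68.6 and 193 cpm in SN, and made up 62.4% of the summed peptide level in STR. The peptide galanin, Gal, was called only without M3576 (0.79).

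Genes of axons were higher in SN. All 5 neurofilament and peripherin genes were higher there, among them Nefh (1.82), Nefl (0.91) and Ina (1.04), the heavy and light subunits and internexin. Nefh had 146, 187 and 291 cpm in SN and 30.1, 60.8 and 79.6 cpm in STR, with M3587 the highest SN library. Of 17 channel genes linked to fast firing 11 were higher in SN and 5 in STR. Their summed level was nevertheless lower in every SN library, 2331, 2659 and 3150 cpm in SN and 3200, 3711 and 4209 cpm in STR, where Scn4b made up 40% of the STR sum. Kcnc4, a fast potassium channel, had 83.2, 89.2 and 94 cpm in SN and 10.5, 18.4 and 23.3 cpm in STR (log2 fold change 2.32) and Cacna1g, a T-type calcium channel of burst firing, 2.02. Scn4b (-3.62), a sodium channel partner abundant in projection neurons, and Cacna1h (-1.93), another T-type channel, were lower in SN. Pan-neuronal genes were higher in SN for 6 of 10 and in STR for 2: Stmn2, a microtubule regulator of axons (1.93), Tubb3, neuronal tubulin (1.01), and Syp, a synaptic vesicle protein (0.86), were higher in SN, Rbfox3, the splicing factor NeuN (-1.40), was lower, and Map2 and Thy1, a dendritic and a surface protein, were not called. Map2 was called without M3576 (0.12) and Thy1 without M3578 (0.19) or M3649 (0.19).

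Genes linked to Parkinson disease were mostly a little higher in SN (of 12 genes tested 9 were higher in SN and 1 in STR). Sncg, gamma-synuclein, had 64.3, 84.4 and 101 cpm in SN and 2.45, 3.95 and 4.9 cpm in STR (log2 fold change 4.52, SE 0.09, adjusted p 3.23e-10), Sncb, beta-synuclein, 1.35, and Uchl1, a ubiquitin hydrolase of neurons, 0.59. Lrrk2, a kinase mutated in familial disease, was lower in SN, with 142, 169 and 209 cpm in STR and 23.1, 26.3 and 46.7 cpm in SN and a log2 fold change of -2.63. The ubiquitin ligase Park2 was not called.

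Of 12364 genes with a mean of at least 3 cpm in both regions, 12 had a log2 level that followed the mouse (r above 0.9 between SN and STR, SD above 0.7 in both). The widest was Atp6v0c, a subunit of the vacuolar proton pump, and the set also holds Gm8615, a predicted gene, and Pttg1, the securin of cell division. Fos, the immediate-early factor, was also in this set. These 12 were chosen after their values were seen. Over the 12364 genes the median r was 0.169.

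Immediate-early genes, which neurons switch on within minutes of activity, were mostly lower in SN: of 14 genes tested 2 were higher in SN and 11 in STR, with a median of -1.94. Egr3, a zinc finger factor induced by activity, had 125, 183 and 218 cpm in STR and 2.15, 3 and 16.9 cpm in SN (log2 fold change -5.13, SE 0.32, adjusted p 2.22e-07). Its relatives Egr2 (-4.74), Egr4 (-4.30) and Egr1 (-3.13) followed, each with M3587 as the highest SN library and no overlap. Fos differed more between mice than regions, with 5.28, 11 and 29.2 cpm in SN and 2.26, 7 and 26.5 cpm in STR and an adjusted p of 0.118. Without M3578 (0.57) or M3588 (0.46) it was called higher in SN. Its highest STR library was that of M3588 and its highest SN library that of M3587. The mice were killed by CO2 and dislocation, and the effect of that on these genes was not tested.

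Myelin genes were higher in SN. Of 25 genes of mature oligodendrocytes 24 were called higher in SN and none in STR, with a median log2 fold change of 0.72 (0.74 without M3587). Their sum was 16303, 21547 and 24628 cpm in SN and 10037, 12917 and 16174 cpm in STR, with Mbp, myelin basic protein, at 41.8% of it in SN. The lowest SN sum, in M3677, is close to the highest STR sum, in M3649. Klk6, a myelin protease, had 31.4, 45.1 and 57.6 cpm in SN and 9.29, 12.9 and 19.9 cpm in STR (log2 fold change 1.66, adjusted p 7.33e-08). Ugt8a (1.07), which makes myelin galactolipid, Gjb1 (1.00), the connexin of myelin, and Ermn (0.89), a cytoskeletal protein of myelin, came next, and Opalin, a membrane protein of oligodendrocytes, was not called. Of 10 precursor genes tested 7 were higher in SN and 0 in STR, beside 40.3 and 38.1% of all genes, with C1ql1 (2.17), a secreted C1q-like protein, Lhfpl3 (0.93), a tetraspan protein, Olig1 (0.58) and Olig2 (0.52), lineage factors, leading. Cspg4 and Vcan, proteoglycans of these cells, and Bmp4, a growth factor, were not called.

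Astrocyte genes were mostly higher in SN: of 14 genes tested 11 were higher in SN and 2 in STR, with a median of 0.71. Their sum ranged from 8444 to 10128 cpm in SN and from 7002 to 8532 cpm in STR. Slc1a2, also in the list, made up a smaller share of it in SN (19.9%) than in STR (38.6%). Agt, angiotensinogen, had 223, 320 and 365 cpm in SN and 22.9, 48 and 79.3 cpm in STR (log2 fold change 2.74, SE 0.12, adjusted p 1.50e-08). Gfap, the filament of fibrous and reactive astrocytes, had 446, 751 and 1086 cpm in SN and 89.3, 188 and 278 cpm in STR. No SN library of Gfap overlapped STR, and its log2 fold change was 2.08. Aqp4 (1.83), the water channel of astrocyte endfeet, and Gjb6 (1.20), connexin 30, were higher too. Sox9, the lineage factor, was not called (log2 fold change 0.07, adjusted p 0.258), though it was when libraries were scaled by total counts. Of 14 genes linked to reactive astrocytes 7 were higher in SN (5 without M3587) and none in STR, beside 40.3% of all genes higher in SN, among them Cd44 (1.90), a hyaluronan receptor, Serping1 (1.41), an inhibitor of C1, and Serpina3n (1.10), a protease inhibitor.

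Microglia genes went the other way. Of 15 none was higher in SN and 14 were higher in STR, each under 2-fold, at a median of -0.39 (-0.34 and 13 genes without M3587). Their sum was 531, 646 and 809 cpm in SN and 696, 804 and 851 cpm in STR, and the groups overlap. Aif1, the calcium-binding protein Iba1, had 7.18, 10.4 and 13.1 cpm in STR and 4.5, 6.05 and 7.51 cpm in SN (log2 fold change -0.82, adjusted p 4.28e-05). Trem2 (-0.67), a lipid receptor, Fcrls (-0.65), an Fc receptor-like protein, and C1qb (-0.47), a chain of C1q, were lower in SN. Activated microglia genes were mixed, 3 higher in SN and 3 in STR of 11 tested, at a median of 0.03. Cd68 (-1.16), a lysosomal protein, Itgax (-1.12), an integrin, and Lpl (-2.99), a lipase also made by striatal neurons, were lower in SN. Spp1, osteopontin, was higher at 1.98, highest in M3587 (218 cpm). Clec7a, Apoe, Gpnmb and Lyz2, a receptor, a lipid carrier, a lysosomal protein and lysozyme, were not called, though Apoe was without M3587 (0.14).

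Of 12 MHC genes tested in adult mice 2 were called in WT, both higher in SN (5 higher without M3677), and 6 were higher in SN in HET and 6 in HOM mice. The 2 are Tap2 (0.63) and Tapbp (0.41), which load peptide on class I. H2-Aa, a class II chain, had 2.23, 5.6 and 20.1 cpm in SN and 4.93, 8.41 and 54.5 cpm in STR, and Cd74, its chaperone, 4.04, 9.3 and 30.8 cpm in SN and 11, 20.7 and 121 cpm in STR. M3677 is the highest STR library of both and M3587 the highest SN library, with wide overlap (adjusted p 0.509 and 0.131). Without M3587 Cd74 was called lower in SN, at -1.34 (adjusted p 0.0701), and so it was without M3578 (-1.40). Cd74 was also called without pairing by mouse, and both Cd74 and H2-Aa with the likelihood ratio test. H2-D1 and H2-K1, class I chains, and B2m, their partner, were not called, but without M3677 H2-D1 (0.34) and B2m (0.24) were called higher in SN. Of 17 interferon response genes 6 were higher in SN and 0 in STR, no larger a share than the 40.3% of all genes higher in SN. They were led by Ifit2, an RNA-binding antiviral protein (log2 fold change 1.38, adjusted p 8.72e-07). The 6 fell to 2 without M3576 or M3578 and to 3 without M3585, M3587, M3588 or M3649, and rose to 8 without M3677. In HET and HOM mice 8 and 9 were higher in SN. Of 11 complement genes 4 were higher in SN and 3 in STR, smaller shares than the 40.3 and 38.1% of all genes, and in HET and HOM mice 5 and 6 were higher in SN. C4b, the classical pathway component, was not called, with 68, 117 and 154 cpm in SN and 98.3, 118 and 199 cpm in STR (adjusted p 0.543). The likelihood ratio test did call C4b. C3, the central component, was called at 0.78, adjusted p 0.0552, and not without M3576 (0.66), M3578 (0.72), M3585 (0.72), M3587 (0.61) or M3649 (0.66) or at adjusted p under 0.05.

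Genes of meninges, choroid plexus and ventricle lining differed in level and in evenness. Of 9 fibroblast and meningeal genes 8 were higher in SN, with a median of 1.63. Their sum was 395, 851 and 3556 cpm in SN and 203, 260 and 714 cpm in STR, highest by far in M3578, and Ptgds, prostaglandin D synthase, made up 83.2% of it in SN. Dcn, the matrix proteoglycan decorin, had 14.6, 24.5 and 67.3 cpm in SN and 5.77, 6.75 and 12.7 cpm in STR (log2 fold change 1.85), without overlap. Col3a1 (1.84), a fibrillar collagen, and Slc22a6 (1.97), an organic anion transporter, were higher as well, and Igf2, a growth factor of meninges and choroid plexus, was not called, though it was without M3585 (1.18) and with the likelihood ratio test. Choroid plexus genes were lower in SN for 7 of 8, beside 38.1% of all genes, with a median of -2.18. In HET mice 1 of 9 was lower and 1 higher, and in HOM mice 6 of 8 were lower and 1 higher. The sum was 31.8, 39.4 and 91.3 cpm in SN and 116, 249 and 8467 cpm in STR, and Ttr, at 92.4% of it in STR, fell by 4.57 log2 units (adjusted p 0.0117). Folr1 (-3.35), a folate receptor, Kl (-2.36), the klotho protein, and Aqp1 (-3.15), a water channel, are also highest in STR of M3585 and M3588. Without these 2 mice Ttr (-2.86), Folr1 (-1.18), Kl (-1.19) and Aqp1 (-1.20) were still called lower in SN, at smaller folds. Ependymal genes were lower in SN for all 8 (6 in HET mice), with sums of 19.9, 21.2 and 22.5 cpm in SN and 42.7, 43.6 and 87.6 cpm in STR, again highest in STR of M3585 but without overlap. Tmem212, a membrane protein of ciliated cells, had 2.49, 2.9 and 4.9 cpm in STR and 0, 0 and 0.4 cpm in SN, a log2 fold change of -4.61, and Ccdc153, a ciliary protein, one of -4.68. Endothelial and pericyte genes were higher in SN for 9 of 12 (6 without M3587) and in STR for 1, beside 40.3 and 38.1% of all genes, at a median of only 0.26, with Tek (0.47), the angiopoietin receptor, Cdh5 (0.45), a junction cadherin, and Pecam1 (0.36), an adhesion protein, higher in SN, and Pdgfrb (-0.34), the pericyte receptor, lower. Genes of dividing and migrating cells and of the olfactory bulb were higher in STR for 6 of 8 and in SN for 1, Th: Top2a (-2.45) and Mki67 (-1.94), genes of dividing cells, and Igfbpl1 (-3.63), a gene of neuroblasts, were lower in SN, while Dcx, doublecortin, was called only without M3576 (0.16).

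Cortical and hippocampal genes had no common direction, 4 higher in SN and 3 in STR of 9 tested. Neurod6 (2.49) and Neurod2 (2.06), basic helix-loop-helix factors of excitatory neurons, were higher in SN, and Tbr1 (-1.89), a factor of neocortical layers, lower. M3578, M3587 and M3588 were the highest SN libraries for Neurod6 and Neurod2. Neurod2 had 7.54, 16.9 and 11.4 cpm there and at most 3.68 cpm in the other SN libraries. In M3649 Neurod2 had 2.11 cpm in SN and 2.12 cpm in STR. Neurod6 and Neurod2 kept their call without M3578, M3587 and M3588. Slc17a7 was not called (log2 fold change 0.47, adjusted p 0.598), with 4.25, 15.5 and 223 cpm in SN and 12.5, 20 and 52.3 cpm in STR and the highest SN library more than 10 times the median. Summed over the 10 genes of the list, SN libraries held 102, 116 and 330 cpm and STR libraries 67.2, 91.5 and 125 cpm. Slc17a7 was called higher in SN with the likelihood ratio test, and lower, at -1.32, without M3578, M3587 and M3588. These are the mice with most Slc17a7 in SN, so a lower value follows from the choice itself.

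The same contrast was repeated in mice that share no library with the 7. In adult HET mice 5723 genes (38.5%) were higher in SN and 5920 (39.8%) in STR, and in adult HOM mice 5816 (39%) and 5884 (39.4%). Of the genes higher in SN in WT mice 90.1% were called so in HET and 89.7% in HOM, which is 94.4 and 93.5% of those groups' own calls. For genes higher in STR the shares of the WT calls were 93.8 and 94.4%. Fold changes of all genes correlated at 0.982 with HET and 0.984 with HOM. Th had a log2 fold change of 6.25 in HET and 6.00 in HOM mice, and Gdnf -4.09 and -4.20, beside 6.08 and -4.42 in WT mice. Ppp1r1b had -5.27 and -5.59, beside -5.12 with and -5.38 without M3587 in WT mice.

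Young Nestin-Cre WT mice, 6 libraries per region and 5 mice with both, gave 5454 genes (37.2%) higher in SN and 5445 (37.1%) in STR. Shared calls made up 76.8% of the adult calls higher in SN and 82.8% of those higher in STR, and fold changes correlated at 0.925. The test of the difference, adult minus young, called 2721 of 15130 genes (18%) with a higher and 2252 (14.9%) with a lower SN over STR difference in adult mice. Without M4529 the genes with a higher difference numbered 1811. Of the genes called, 131 and 307 changed by at least 2-fold. The 131 became 276 without M4394 and 86 without M4529, and the 307 became 481 without pairing by mouse and 182 with the stricter filter. Scaled by total counts the lower differences outnumber the higher, 2627 to 2067. For 229 genes adult and young mice were called in opposite directions with a called difference. The difference was not called for Slc6a3 (-0.01, adjusted p 0.99), Th (0.47, adjusted p 0.147) or Gdnf (-0.66, adjusted p 0.35). Without M3587 it was called for Th, at 0.59 (adjusted p 0.0568), and for Gdnf, at -1.20 (adjusted p 0.0423). Th was also called without M4609, at 0.59. For Ppp1r1b the difference was 0.80, adjusted p 0.0763, and without M3587 it was 0.55 (adjusted p 0.0349). Ppp1r1b was not called without M3576 (0.78), M3649 (0.80), M4394 (0.71), M4529 (0.88), M4545 (0.80) or M4609 (0.78).

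All 25 oligodendrocyte genes had a smaller SN over STR difference in adult mice, beside 14.9% of all genes, the most even list of the comparison. Some neuronal lists went the other way. Of 29 striatal projection neuron genes 17 had a higher difference and 0 a lower one, beside 18% of all genes higher. The count of 17 includes the SN library of M3587, which carries striatal tissue. The list median was -3.90 in adult mice, -4.06 in adult mice without M3587 and -4.77 in young mice. Of 10 pan-neuronal genes 8 had a higher difference and 0 a lower one. The oligodendrocyte genes summed to 16025, 21276 and 24350 cpm in adult SN and 10089, 12978 and 16189 cpm in adult STR. In young mice the oligodendrocyte sums were 21443, 33547 and 40495 cpm in SN and 7787, 10060 and 15397 cpm in STR. Adult SN lies under young SN and adult STR over young STR in the medians, with overlap in both regions. Klk6 had a median of 44.5 cpm in adult and 90.8 cpm in young SN, and 12.9 and 8.5 cpm in STR, a difference of -1.79, adjusted p 0.00313. For Gfap the same medians were 741 and 1145 cpm in SN and 189 and 73.2 cpm in STR, with a difference of -1.83, adjusted p 0.00101.

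Several immune genes differ between adult and young mice in their SN over STR difference. C4b had 66.9, 115 and 152 cpm in adult SN, 98.5, 116 and 200 cpm in adult STR, 51.6, 74.3 and 99.8 cpm in young SN and 10.5, 17.9 and 21.4 cpm in young STR. Every adult STR library lies above every young STR library, while the SN groups overlap, and the difference was -2.12, adjusted p 0.00101. H2-Aa had 2.19, 5.54 and 19.8 cpm in adult SN, 4.94, 8.31 and 54.8 cpm in adult STR, 3.33, 7.58 and 50.8 cpm in young SN and 0.608, 1.01 and 1.3 cpm in young STR. The adult STR libraries of H2-Aa all exceed the young ones. In young SN, M4329 and M4394 (39.8 and 50.8 cpm) stand apart from the other 4, which have at most 8.12 cpm, and the difference was -3.99, adjusted p 0.0163. Cd74 (-3.97, adjusted p 0.00828) was highest in the same 2 young SN libraries (43.9 and 55.9 cpm, at most 13 in the others). For C3 the difference was -2.72, adjusted p 0.0165. Of 12 MHC genes 11 had a lower SN over STR difference in adult mice and none a higher one, of 17 interferon genes 7, of 12 complement genes 7 (4 without M4529) and of 15 microglia genes 9, beside 14.9% of all genes. MHC genes summed to 224, 267 and 346 cpm in adult SN, 199, 248 and 702 cpm in adult STR, 204, 314 and 540 cpm in young SN and 113, 124 and 159 cpm in young STR. The injected STR, the age of the mice and the source of Cre cannot be told apart in this contrast.

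The largest single differences between adult and young mice often rest on few libraries. Folr1 (-4.65, adjusted p 0.0196), Kcne2 (-3.92, adjusted p 0.0574), a potassium channel subunit, and 1500015O10Rik (-3.96, adjusted p 0.0361), the secreted protein augurin, are choroid plexus genes whose adult STR maximum is in M3585. Kcne2 was not called without M3585 (-2.59), M3588 (-2.92) or M4545 (-2.91). Shox2 had 1.64, 2.7 and 4.54 cpm in adult SN, 0.0587, 4.92 and 13.3 cpm in adult STR, 1.67, 7.65 and 27.9 cpm in young SN and 0.0592, 0.245 and 3.34 cpm in young STR. It varied most in adult STR and young SN, and the difference was -4.23, adjusted p 0.0128. On the other side Fat2, a cadherin of cerebellar granule and precerebellar neurons, had 0, 0.884 and 32.2 cpm in adult SN, 0, 0 and 0.0719 cpm in adult STR, 0.565, 0.738 and 19.9 cpm in young SN and 0, 0.502 and 7.51 cpm in young STR, with 3 reads in all adult STR libraries together and a difference of 7.45, adjusted p 0.00153. Nr4a2, the nuclear receptor Nurr1 of dopamine and claustral neurons, had 46.7, 65.8 and 80.7 cpm in adult SN, 0.88, 1.37 and 3.39 cpm in adult STR, 23.2, 34 and 53.7 cpm in young SN and 0.842, 8.26 and 56.4 cpm in young STR. Young STR ranged widely for Nr4a2 while adult STR did not, and the difference was 3.10, adjusted p 0.011. Cartpt (3.22, adjusted p 0.00926), the peptide CART, was higher in adult than young SN, at medians of 25.1 and 5.94 cpm. Cd72 (3.07, adjusted p 0.00322), a B cell receptor, Cnpy1 (4.63, adjusted p 0.0316) and Lhx1 (2.90, adjusted p 0.0286) complete the 6.

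Promoters of the listed genes were searched for 3 motifs, of factors that answer to cAMP or activity or that mark dopamine neurons. RefSeq promoters of GRCm38.p6, from 250 bases before to 50 after each start, were read for 10 of 13 dopamine synthesis genes, 14 of 16 neuropeptide genes and 10 of 14 immediate-early genes. The cAMP response element TGACGTCA, which reads the same on both strands, occurs in 2 of the 10, 4 of the 14 and 2 of the 10, the 3 lists with the highest shares of the 45 searched, and in 549 of 27025 genes overall (2.03%). It was found in no gene of 37 lists. Over all listed genes with a promoter it occurs in 11 of 379 (2.9%), among them Gpr6, a receptor of projection neurons, H2-Aa and Flt1, an endothelial receptor. The motif is in capitals in these 30-base windows of genes named above, read on the strand of the gene.
Th, chr7:142900022-142900051, minus strand: cagaggggcttTGACGTCAgcctggccttt
Slc18a2, chr19:59260863-59260892, plus strand: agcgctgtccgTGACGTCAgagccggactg
Cartpt, chr13:99900777-99900806, minus strand: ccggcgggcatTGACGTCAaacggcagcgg
Sst, chr16:23890874-23890903, minus strand: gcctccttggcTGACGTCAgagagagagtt
Th, Slc18a2 and Cartpt are higher in SN and Sst is higher in STR. The search also covered the Nr4a2 motif AAAGGTCA and the EGR motif GCGTGGGCG on both strands, held by 1.70 and 0.707% of all promoters. Of the 379 listed genes with a promoter, the first occurs in 6 (1.58%), no more often than over all promoters: Ddc (chr11:11898199-11898228), Sox6, Scn8a, Trem2, H2-Eb1 and Irf9. The second occurs in 2 (0.528%), Sorl1 and Htr7. A match describes the letters in the window and says nothing on binding.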

How the data were processed

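Gene-level read counts, made by the authors and deposited as 1 table of 24412 genes by 121 libraries (6 genes without a symbol), were used as they stand. The submitters' processing notes name bcl2fastq 2.20.0.422, STAR 2.5.2b and featureCounts 1.5.1 on mm10, and stranded mRNA libraries read 75 bases from 1 end. The strand setting of the counting is not stated. Of the 249 named genes, 29 have a gene on the other strand that overlaps them, such as Dlx6, Chrm4, Htr1b, Nefh, Ina and Cd72, and Slc18a3 lies inside Chat on the same strand.

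The 14 libraries (7 SN, 7 STR) were chosen by label, with 0 columns of the group left unused. Depth ran from 13951371 to 21788649 reads assigned to genes, so 1 read is about 0.05 to 0.07 cpm. A gene entered when 3 or more libraries reached 1 cpm, and libraries were scaled by TMM. In R 4.3.3 with edgeR 4.0.16, a quasi-likelihood fit with a mouse term compared SN with STR, and adjusted p under 0.1 was called. The same fit served HET, HOM and young WT mice, and a joint fit tested adult minus young. Standard errors come from the fit. The scripts were tested on simulated data before use.

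Pairing by mouse number was checked by correlating each SN library with each STR library after removing region means: the median r within a mouse was 0.204 and between mice -0.0197, and 6 of 7 SN libraries matched their own mouse best. No 2 libraries of a region were duplicates.

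Genes are named by a rule that was itself chosen with earlier results of these data known. It names Th, Slc6a3, Ppp1r1b and Gdnf, and the 10 largest differences each way. It also names up to 4 called genes and those not called of each of 45 gene lists. The 6 largest adult minus young differences each way complete the rule. The members and the gene lists were chosen with earlier results on these regions known. Atp6v0c and the other genes that follow the mouse were taken up after their values were seen. Results on some genes that the rule names are not reported here. Alternatives were fits without the mouse term, DESeq2 1.42.0 and its size factors, total-count scaling, no filter, a stricter filter, a likelihood ratio test, a stricter threshold and leaving out each mouse. RefSeq promoters of GRCm38.p6 were searched for 3 motifs on both strands.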

Additional observations from a re-analysis of the deposited data

Results flagged for a closer look

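In 152 groups of 7 values (45 list sums and 31 genes, in SN and in STR), 25 held a library set apart from the rest by Dixon's gap rule. By chance about 1 in 20 groups of unrelated values would. These groups share libraries and genes, so that rate cannot be set against the 25. The SN library of M3587 accounts for 15 of the 25. It was highest, with the next library in brackets, for the sums of striatal projection neuron genes (3090 cpm; 1660), of opioid, tachykinin, cannabinoid and adenosine receptors (586; 500), of phosphodiesterases (1500; 1140), of RGS genes (1340; 1060) and of T and B cell genes (12.1; 2.23). The same library was highest for Ppp1r1b (212; 65), Gdnf (1.05; 0.333), Adora2a (38.5; 8.83), Cd4 (7.52; 0.666), Ankrd63 (17.8; 3.44), Lhx8 (0.719; 0.111), Sh3rf2 (6.23; 0.664), Lrrc10b (17.3; 2.75), Drd1 (27.4; 5.89) and Gabrd (17.2; 3.33). Most of these are genes of striatum, and this library was known to carry striatal tissue when the members were chosen.

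In STR, M3677 was highest for the MHC sum (698; 276), Cd74 (121; 24.9) and H2-Aa (54.5; 12.5), M3585 for the fibroblast sum (714; 403) and Foxa1 (0.123; 0), M3578 for Chrna6 (0.0601; 0) and M3587 for Lhx1 (0.175; 0.0613). Foxa1, Chrna6 and Lhx1 have 2, 1 and 4 reads in all STR libraries together, too few for the rule, so these 3 say nothing. In SN, M3576 was highest for activated microglia genes (3070; 2660), and M3578 for the fibroblast sum (3560; 1190) and 1500015O10Rik (2.56; 0.954).

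For 13 of the 31 genes looked at, the SN over STR difference in adult AAV-Cre mice differed from that in young Nestin-Cre mice. Over all 15130 genes tested this difference was called higher in adult mice for 18% and lower for 14.9%. In log2 units the change was 0.80 for Ppp1r1b, 2.90 for Lhx1, 4.63 for Cnpy1, 7.45 for Fat2, 3.22 for Cartpt, 3.10 for Nr4a2 and 3.07 for Cd72. It was -4.23 for Shox2, -3.97 for Cd74, -3.99 for H2-Aa, -4.65 for Folr1, -3.96 for 1500015O10Rik and -3.92 for Kcne2. The call of Ppp1r1b is lost in each of 6 fits that leave out 1 mouse, and that of Kcne2 in 3. All but Ppp1r1b were named for the size of this change. The rule took only called genes, so their call follows from the choice, which also favours large values.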

How the results depend on the processing

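In adult WT mice the counts over all genes, higher in SN and higher in STR, stayed within 1.5 times under every alternative. Counts within some gene lists moved further, as given above for interferon response and MHC genes. Over 17 settings the log2 fold change ran from 5.91 to 6.24 for Th, 11.64 to 12.10 for Slc6a3, -5.38 to -4.86 for Ppp1r1b and -4.98 to -4.23 for Gdnf. In all, 9198 values were looked at, planned and chosen later, which also cover the adult minus young difference. Of the planned ones 8087 kept their label, 61 moved in size, 99 gained a call, 42 lost one and 0 reversed. The likelihood ratio test called 25 of 248 named genes that the reported fit did not.

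The adult minus young difference was less stable. Without pairing by mouse (no replicate block) genes at least 2-fold lower numbered 481 against 307, and Th was called at 0.57 against 0.47. In the adult comparison it changed 9 of 248 calls on named genes (8 gained, 1 lost, Fcrls). The stricter filter gave 182 such genes, and the likelihood ratio test called Th at 0.47. Ppp1r1b, at 0.80, lost its call at the stricter threshold. Leaving out 1 mouse gave 1811 to 3070 genes with a higher difference and 86 to 276 at least 2-fold higher (131 reported). Th was called without M3587 and without M4609 (0.59 each) and Gdnf without M3587 (-1.20), and Ppp1r1b lost its call without M3576, M3649, M4394, M4529, M4545 or M4609. Over the same leave-outs Th ran from 0.34 to 0.59, Ppp1r1b from 0.55 to 0.95 and Gdnf from -1.20 to -0.43. Scaling by total counts moved the split from 2721 higher and 2252 lower to 2067 and 2627, and the cause was not tested. In adult WT mice it moved the split from 5983 higher in SN and 5650 in STR to 6644 and 5009. The median log2 fold change moved by 0.06 there, by 0.104 in HET and by 0.137 in young mice.

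Settings chosen after seeing the data left out mice. Without M3578, M3587 and M3588, Slc17a7 turned from 0.47 to -1.32 and the adult minus young value of Th was called at 0.66. These mice had most Slc17a7 in SN, so the lower value of Slc17a7 follows from the choice itself. Without M3585 and M3588 the difference called 3044 genes against 4973, 1631 higher, 1413 lower and 194 at least 2-fold lower.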
